A study of Mus musculus with 24 samples.

Results

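The genes of cholesterol synthesis, uptake and export were followed in sorted projection neurons of the developing mouse cortex. The 29 genes were taken by name from a deposited expression table of 32310 genes, and all 29 names were found. They comprise 8 genes of the mevalonate pathway up to squalene, 10 enzymes that turn squalene into cholesterol, 5 genes of sterol sensing, and 6 genes of sterol transport, efflux and lipoproteins. The neurons came from CD1 mice, an outbred strain, with no treatment named, and were purified by fluorescence-activated cell sorting. Callosal neurons project to the opposite hemisphere, subcerebral neurons project to brainstem and spinal cord, and corticothalamic neurons project to the thalamus. Each of these 3 subtypes was collected at embryonic days 15, 16 and 18 (E15, E16 and E18) and at postnatal day 1 (P1). No genotype other than the strain is named in the labels. The markers used for the sort are not named, nor is it stated that the libraries came from separate animals.

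Cells make cholesterol from acetyl-CoA, through mevalonate and isoprenoid diphosphates to squalene, which is then epoxidised, closed into lanosterol and trimmed to cholesterol. The membrane-bound transcription factor SREBP2, encoded by Srebf2, drives the genes of this pathway when sterols in the endoplasmic reticulum are low. SCAP escorts SREBP to the Golgi for cleavage, and the INSIG proteins hold the complex back when sterols are high. The blood-brain barrier keeps circulating lipoproteins out of the brain, so that neural cells rely on local synthesis and on lipoproteins that carry apolipoprotein E, much of it released by glia.

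The table holds 1 value per group, 12 in all, although the labels list 24 libraries, 2 per group. The unit was taken to be FPKM, sequenced fragments scaled to transcript length and to library size, and the depth behind each value is unknown. A value is the authors' pooled level of a group, so it has no spread of its own. Between 12294 and 12838 genes reached 1 FPKM in a group. The sorted cells carried their labelled markers: the 4 callosal groups held Cux2, a transcription factor of upper-layer neurons, at 59.1 to 104 FPKM, against 1.26 to 6.80 FPKM in the other 8 groups. The corticothalamic groups held Tle4 at 192 to 212 FPKM, and the subcerebral groups had the 4 highest levels of Fezf2, from 127 to 366 FPKM. Gfap and Aqp4, markers of mature astrocytes, were at or below 0.09 FPKM in all 12 groups, but the whole list of 14 astrocyte and radial glia genes summed to 68.8 to 120 FPKM, with Glul, Vim and Fabp7 present in every group. If the sort used the products of any of these genes, their levels are no separate check of it.

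Differences between subtypes, and between P1 and E15, were tested with limma on log2(FPKM + 1) over the 12 values, with additive terms for subtype and stage. The ± values are standard errors (SE) of that fit. Its error is the unevenness of a subtype difference over the stages, not the spread between libraries. The fit covered 13946 genes at or above 1 FPKM in at least 2 groups, including 28 of the 29 members. The member left out was Abca1, an exporter of cellular cholesterol, at 0.1 to 0.82 FPKM. A difference between 2 single values, such as 1 subtype at neighbouring stages, has no replicate and no test. Such differences were described by whether they reached 1.5-fold on the log2(FPKM + 1) scale, beside the share of all 13946 genes that did. In sorted bulk samples, a smaller share of cells expressing a gene and less RNA per cell cannot be told apart.

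**Figure D1:**
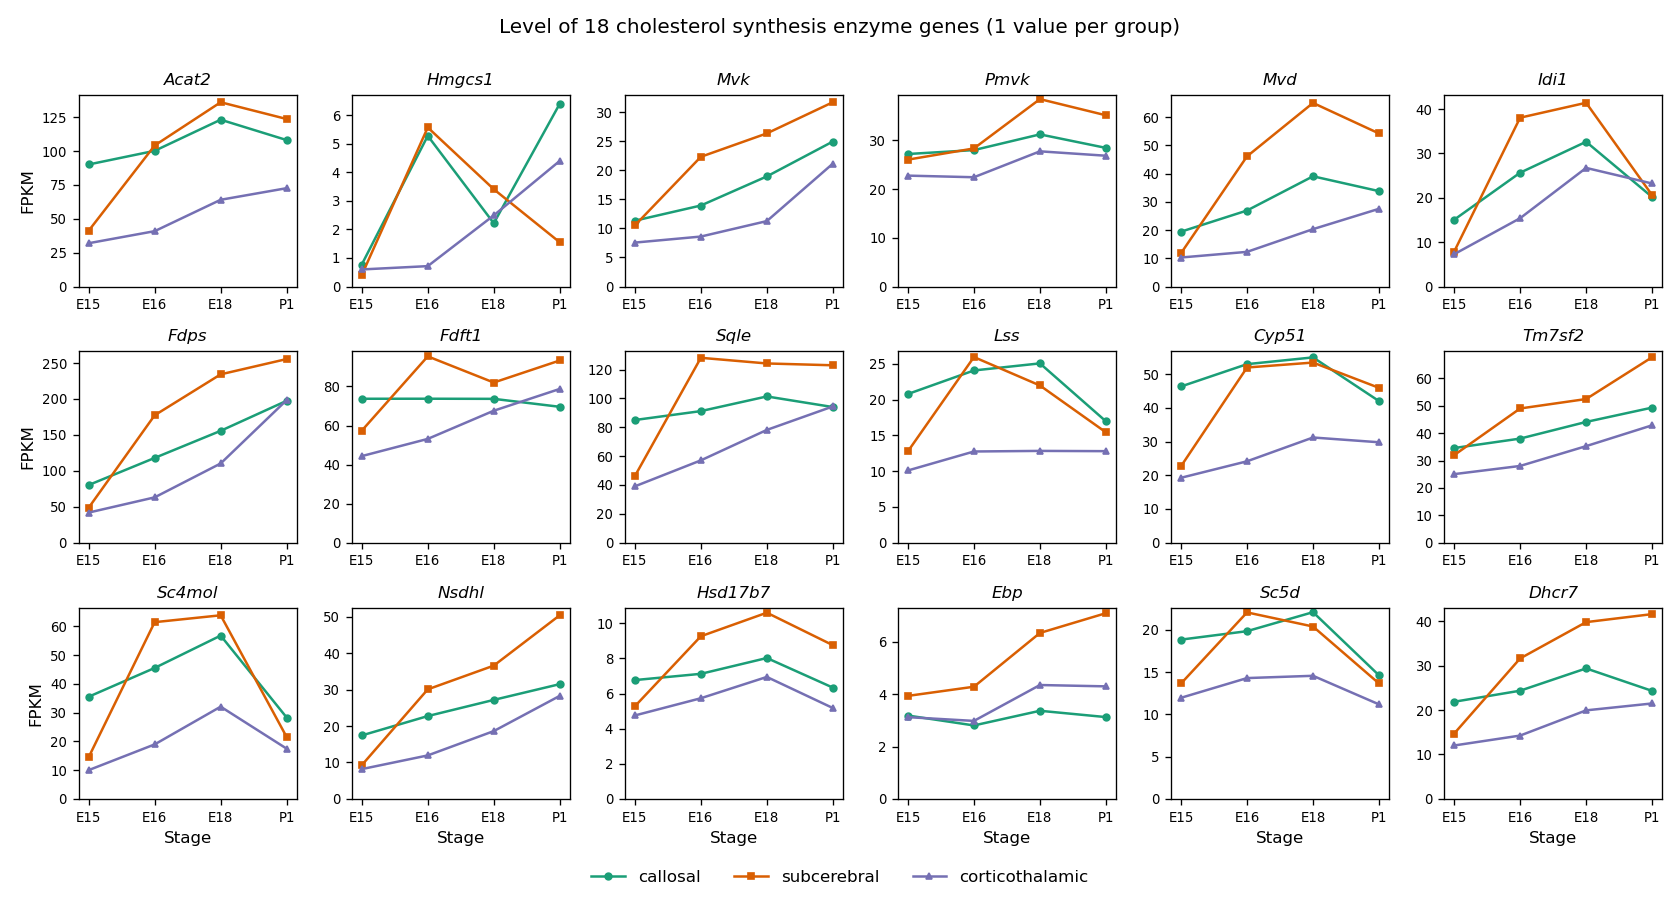
FPKM (vertical axis, from 0) of the 18 synthesis enzymes at 4 stages, with 1 point per group and a line per subtype. Corticothalamic neurons had the lowest value for 17 of 18 enzymes at E15 and E16, and subcerebral values of most enzymes were higher at E16 than at E15.

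The enzymes of cholesterol synthesis were lowest in corticothalamic neurons throughout the embryonic stages. Of the 18 enzymes, 17 had their lowest level in corticothalamic neurons at E15, 17 at E16, 16 at E18 and 12 at P1. The subtype with the highest level changed between E15 and E16. At E15 callosal neurons had the highest level of 17 of the 18 enzymes. Subcerebral neurons had the highest level of 17 at E16, 15 at E18 and 13 at P1. For all genes tested, the subtype with the lowest or highest level was not counted. Callosal levels exceeded corticothalamic ones for 18, 17, 16 and 13 enzymes at E15, E16, E18 and P1. Among all 13946 genes tested they did so for 7203, 7388, 7094 and 6824. Subcerebral levels exceeded corticothalamic ones for 17, 18, 18 and 16 enzymes at those stages, beside 7492, 7043, 6760 and 6827 genes.

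The upstream enzymes were high in callosal neurons from the first stage on. Acat2, the cytosolic thiolase that joins acetyl-CoA units, was at 90.1, 100.2, 123 and 108 FPKM in callosal neurons at E15, E16, E18 and P1. In subcerebral neurons it was at 41.2, 104, 136 and 124 FPKM, and in corticothalamic neurons at 32.0, 40.9, 64.1 and 72.6 FPKM. All 4 callosal values of Acat2 lay above all 4 corticothalamic values, while the subcerebral value at E15 lay among the corticothalamic ones. Fdps, which makes farnesyl diphosphate for both sterols and protein prenylation, was at 80.2, 118, 156 and 197 FPKM in callosal neurons. It was at 48.7, 177, 234 and 256 FPKM in subcerebral neurons and at 41.9, 63.1, 110 and 198 FPKM in corticothalamic neurons. The callosal and corticothalamic levels of Fdps thus met at P1. Mvd, the mevalonate diphosphate decarboxylase, was at 19.4, 26.9, 39.0 and 33.8 FPKM in callosal neurons. The subcerebral values of Mvd were 11.8, 46.1, 65.0 and 54.2 FPKM, and the corticothalamic values 10.3, 12.3, 20.3 and 27.5 FPKM. From E16 on, subcerebral Mvd exceeded every callosal and corticothalamic value.

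The remaining mevalonate genes followed with lower levels or smaller ranges. Idi1, the isopentenyl diphosphate isomerase, ran from 7.28 FPKM in corticothalamic neurons at E15 to 41.4 FPKM in subcerebral neurons at E18. Mvk, the mevalonate kinase, ran from 7.56 FPKM in corticothalamic neurons at E15 to 31.7 FPKM in subcerebral neurons at P1. Fdft1, the squalene synthase that commits isoprenoids to sterols, ran between 44.3 and 95.4 FPKM over the 12 groups. In callosal neurons Fdft1 stayed between 69.6 and 73.7 FPKM. Pmvk, the phosphomevalonate kinase, varied least among these 8 genes, from 22.4 to 38.5 FPKM. Hmgcs1, the synthase of HMG-CoA, ran from 0.40 to 6.40 FPKM, was under 1 FPKM in 4 groups, and went up and down between stages in callosal and subcerebral neurons. Its level is low beside that of its neighbours in the pathway, and whether that reflects the transcript or its quantification was not tested.

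Past squalene the pattern of the subtypes was similar. Sqle, the squalene epoxidase, was at 85.1, 91.2, 101.4 and 94.0 FPKM in callosal neurons from E15 to P1. In subcerebral neurons Sqle was at 46.2, 128, 124 and 123 FPKM, and in corticothalamic neurons at 39.1, 57.1, 78.2 and 94.5 FPKM. The corticothalamic level of Sqle thus reached the callosal one at P1. Cyp51, the lanosterol demethylase, was at 46.4, 53.0, 55.0 and 42.0 FPKM in callosal neurons, 22.7, 52.0, 53.4 and 45.9 FPKM in subcerebral neurons, and 19.3, 24.2, 31.2 and 29.8 FPKM in corticothalamic neurons. All 4 callosal values of Cyp51 lay above all 4 corticothalamic values. Sc4mol, the methylsterol oxidase now called Msmo1, was at 35.5, 45.5, 56.8 and 28.3 FPKM in callosal neurons. Its subcerebral values were 14.5, 61.4, 63.8 and 21.5 FPKM, and its corticothalamic values 9.99, 18.9, 32.0 and 17.5 FPKM. Sc4mol was lower at P1 than at E18 in all 3 subtypes, and the callosal and corticothalamic ranges overlapped only through the callosal P1 value.

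Among the later enzymes, some had their highest level at P1 and others at E18 or E16. Nsdhl, a sterol dehydrogenase, was at 17.4, 22.8, 27.2 and 31.5 FPKM in callosal neurons, 9.26, 30.1, 36.6 and 50.5 FPKM in subcerebral neurons, and 8.18, 11.9, 18.6 and 28.3 FPKM in corticothalamic neurons. Dhcr7, which reduces the final double bond before cholesterol, was at 21.9, 24.3, 29.4 and 24.3 FPKM in callosal neurons. It was at 14.7, 31.6, 39.8 and 41.6 FPKM in subcerebral neurons and at 12.01, 14.2, 19.9 and 21.5 FPKM in corticothalamic neurons. Every corticothalamic value of Dhcr7 lay below every callosal value. Lss, the lanosterol synthase, lay between 17.0 and 25.1 FPKM in callosal neurons and between 10.1 and 12.8 FPKM in corticothalamic neurons. Tm7sf2, a sterol reductase, ran from 25.03 to 67.7 FPKM and Sc5d, a sterol desaturase, from 11.2 to 22.1 FPKM. Hsd17b7, a sterol ketoreductase, ran from 4.75 to 10.6 FPKM. Ebp, a sterol isomerase, ran from 2.81 to 7.10 FPKM and was the enzyme whose callosal level was the lowest of the 3 subtypes at E16, E18 and P1.

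**Figure D2:**
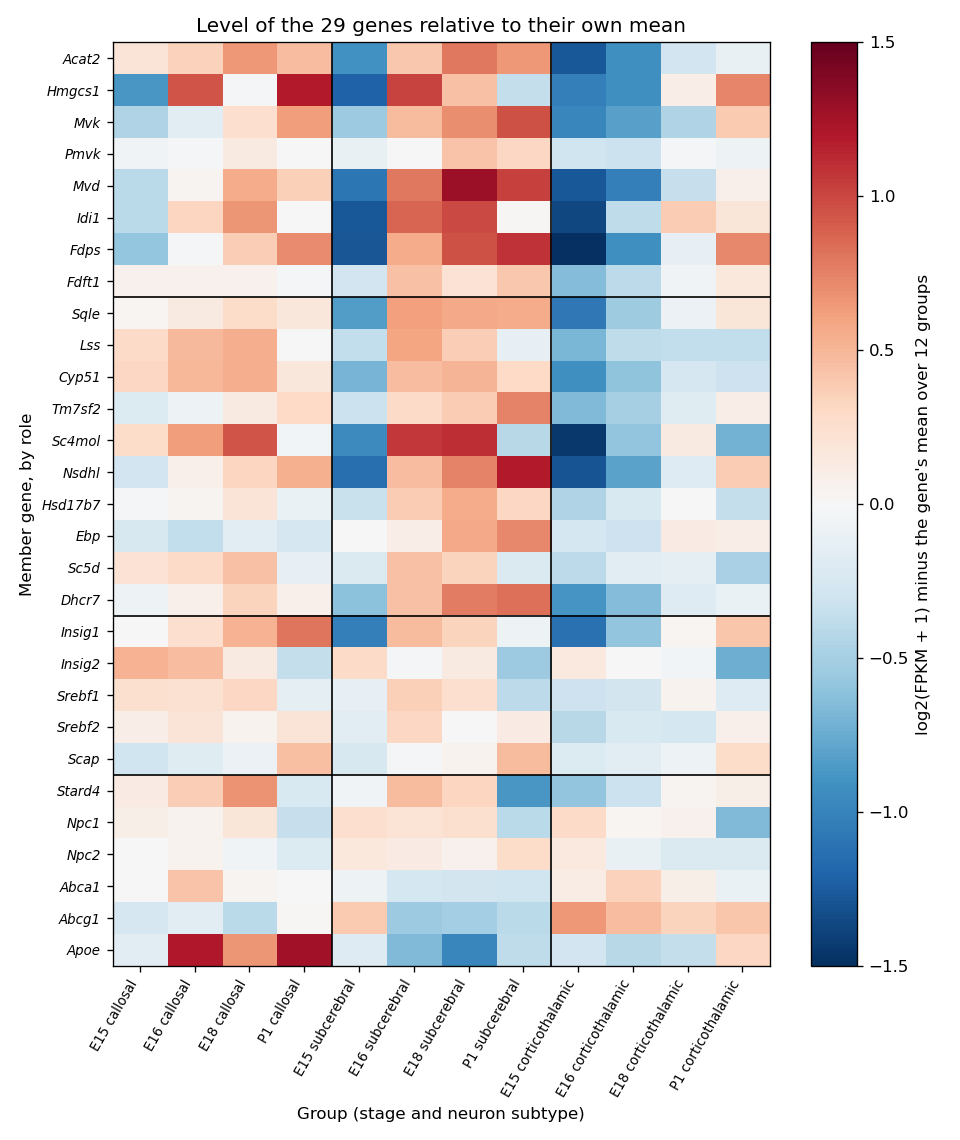
Level of each of the 29 genes in the 12 groups, as log2(FPKM + 1) minus the gene's mean over the groups (colour scale), ordered by role and by subtype. Most enzyme rows are below their mean in subcerebral neurons at E15 and in corticothalamic neurons at E15 and E16, and above it in subcerebral neurons at E16 and E18.

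Averaged over the 4 stages, callosal neurons exceeded corticothalamic neurons in 12 of the 28 members tested and fell below them in 1. In the same limma fit, 15.3% of all genes tested were higher in callosal neurons and 16% were lower. The higher members were 2 of 8 mevalonate genes, 6 of 10 enzymes past squalene, 3 of 5 sensing genes and 1 of 5 transport genes. The median difference over the 28 members was 0.47 on the log2(FPKM + 1) scale, against 0.01 over all genes tested. Among the enzymes, Sc4mol differed most, by 1.11 ± 0.26 (adjusted p = 0.0142, limma), followed by Acat2 at 1.06 ± 0.21 (adjusted p = 0.00664) and Cyp51 at 0.90 ± 0.18 (adjusted p = 0.00627). Lss was higher by 0.78 ± 0.14, Dhcr7 by 0.56 ± 0.18, Mvk by 0.52 ± 0.14, Sc5d by 0.50 ± 0.09 and Tm7sf2 by 0.35 ± 0.09. The member lower in callosal neurons was Abcg1, an exporter of cholesterol to lipoproteins, at -0.66 ± 0.16 (adjusted p = 0.016). The count of higher members depended on the middle stages: it was 4 without E16 and 5 without E18, with 1859 and 2013 genes of the whole table called in place of 4361. Leaving out a single group gave 5 without corticothalamic neurons at E16 and 7 without corticothalamic neurons at E18, callosal neurons at E16 or callosal neurons at E18. It gave 18 without subcerebral neurons at E15. Abcg1 was not called without stage E16 or E18, or without the corticothalamic group of either. Lss, Cyp51 and Sc5d passed in all 24 alternative settings, with adjusted p up to 0.0379, 0.047 and 0.0433 (limma), whereas Dhcr7 passed in 11 and Insig1 in 12 of the 24.

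Subcerebral neurons exceeded corticothalamic neurons in 15 of the 28 members and fell below them in 1, beside 14.7% of all genes tested higher and 12.8% lower. This comparison shares its corticothalamic values with the previous one, so the counts are not independent of each other. The higher members were 5 of 8 mevalonate genes, 9 of 10 enzymes past squalene and Srebf2. The median over the members was 0.43, against -0.00 over all genes tested. Mvd was higher by 1.15 ± 0.26 (adjusted p = 0.0179, limma), Acat2 by 0.88 ± 0.21 (adjusted p = 0.0204) and Mvk by 0.86 ± 0.14 (adjusted p = 0.00678). Past squalene, Sc4mol was higher by 0.85 ± 0.26, Dhcr7 by 0.81 ± 0.18, Nsdhl by 0.79 ± 0.22 and Hsd17b7 by 0.48 ± 0.12. Abcg1 was lower by a log2 difference of -0.73 ± 0.16 (adjusted p = 0.016). This count rested on every stage after E15. No member was called without E16 or without E18, when 366 and 259 genes of the whole table passed in place of 3835, and 4 were called without P1. Without a single group, 2 members were higher when corticothalamic neurons at E16 or E18, or subcerebral neurons at E18, were left out, and 3 when subcerebral neurons at E16 or P1 were left out. The lower call of Abcg1 was lost with each of those stages and groups. Mvk and Tm7sf2 passed in 22 of 24 alternative settings, with adjusted p up to 0.082 and 0.0686 (limma), whereas Sc4mol passed in 8 and Fdps and Srebf2 in 10 of the 24.

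**Figure D3:**
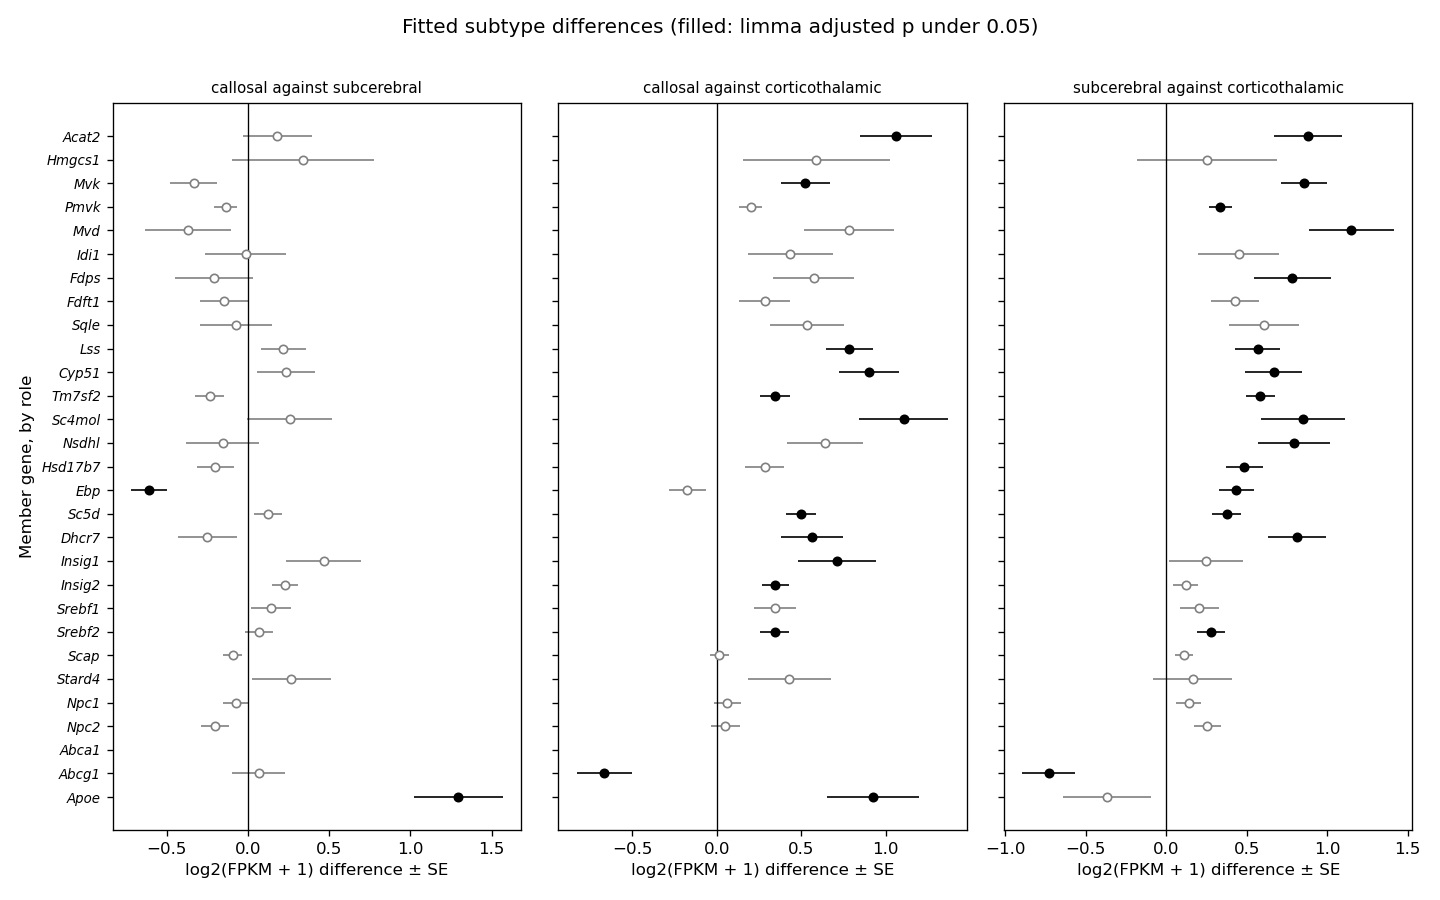
Difference between subtypes on the log2(FPKM + 1) scale (horizontal axis, point and SE of the limma fit over 12 values) for each member tested. Filled points passed an adjusted p of 0.05: 2 in the left panel, 13 in the middle and 16 in the right one, and Abca1 has no point.

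Between callosal and subcerebral neurons, 1 member was higher and 1 lower over the 4 stages, beside 14.1% of all genes tested higher and 15.2% lower. Apoe, which encodes apolipoprotein E, was higher in callosal neurons by 1.29 ± 0.27 (adjusted p = 0.0105, limma), and Ebp was lower by a log2 difference of -0.61 ± 0.11 (adjusted p = 0.00563). These counts share values with both comparisons above. They depended on E15. Without E15, or without subcerebral neurons at E15, 8 members were lower in callosal neurons, while the genes called in either direction over the whole table went from 4093 to 6154 and 5976. Without callosal neurons at E15, 2 were lower. Apoe was not called without E16, E18 or P1, and Ebp was not called without E18. There were 2 higher members without E15, without callosal neurons at E18 or without subcerebral neurons at E16.

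For the enzymes, the excess of callosal over subcerebral neurons lay mostly at E15. At that stage, 10 of the 28 members were at least 1.5-fold above their subcerebral level in callosal neurons, beside 5.06% of all genes. They were Acat2, Mvd, Idi1, Fdps, Sqle, Lss, Cyp51, Sc4mol, Nsdhl and Insig1, with log2 differences from 0.66 for Lss to 1.24 for Sc4mol. At E16 the members at least 1.5-fold lower in callosal neurons were 2, Mvk and Mvd, beside 7.39% of all genes. At E18 they were 3, Mvd, Fdps and Ebp, beside 8.99%. Apoe was the 1 member at least 1.5-fold higher in callosal neurons at E16 and at E18, beside 1024 and 1123 of all 13946 genes. At P1, 4 members were lower, Mvd, Nsdhl, Ebp and Dhcr7, beside 10.7%, and 4 were higher, Hmgcs1, Insig1, Stard4 and Apoe, beside 10.4%. The counts of lower and of higher members at E16, E18 and P1 are close to or below the background, and these differences between single values have no test.

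Fewer members separated callosal from corticothalamic neurons at the later stages. Callosal neurons were at least 1.5-fold higher for 14 members at E15, 15 at E16, 8 at E18 and 2 at P1, beside 7.84%, 7.35%, 7.01% and 8.31% of all genes. The 2 members at P1 were Sc4mol, at 28.3 against 17.5 FPKM, and Apoe, a count close to the background. Subcerebral neurons showed 0 such members at E15, 19 at E16, 11 at E18 and 8 at P1, beside 2.90%, 6.30%, 8.71% and 10.7% of all genes. The 19 members at E16 included 16 of the 18 enzymes, all but Pmvk and Ebp, together with Insig1, Srebf1 and Stard4. The 8 members at P1 were Acat2, Mvd, Cyp51, Tm7sf2, Nsdhl, Hsd17b7, Ebp and Dhcr7.

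The largest step of the pathway lay between E15 and E16 in subcerebral neurons. There, 17 of the 28 members were at least 1.5-fold higher at E16, beside 8.15% of all genes. They were 7 of 8 mevalonate genes, with a median log2 difference of 1.58 over the 8, 9 of 10 enzymes past squalene, with a median of 1.01 over the 10, and Insig1. The median over all genes was -0.01. Idi1 was 4.85-fold higher in FPKM, Sc4mol 4.24-fold, Mvd 3.90-fold, Fdps 3.64-fold and Nsdhl 3.25-fold. Pmvk at 1.09-fold and Ebp at 1.09-fold were the enzymes that did not reach the threshold. Callosal and corticothalamic neurons had 3 and 2 such members over the same interval, beside 5.28% and 3.42% of all genes. These were Hmgcs1, Idi1 and Apoe in callosal neurons and Idi1 and Sc4mol in corticothalamic neurons. Over this step in subcerebral neurons the summed level of the 14 astrocyte and radial glia genes went from 95.9 to 75.9 FPKM. Of these genes, Slc1a3 went from 14.2 to 4.47 FPKM, Vim stayed at 23.3 FPKM and Slc1a2 went from 2.00 to 2.15 FPKM. The sum of 9 vascular genes went from 6.97 to 6.08 FPKM. Other sums were higher: 13 microglial genes went from 17.4 to 24.3 FPKM and 7 oligodendrocyte lineage genes from 9.04 to 13.8 FPKM. The sum of 6 meningeal fibroblast genes went from 0.62 to 1.64 FPKM. The sum of 8 proliferation genes went from 31.8 to 37.6 FPKM, of which Pcna alone went from 24.2 to 31.4 FPKM. Birc5 was also higher at E16, whereas Mki67, Top2a, Cdk1, Ccnb1, Mcm2 and Mcm5 were lower. The part of any of these lists in the step was not tested. The difference between subtypes in this step was not tested, since each step is a pair of single values.

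**Figure D4:**
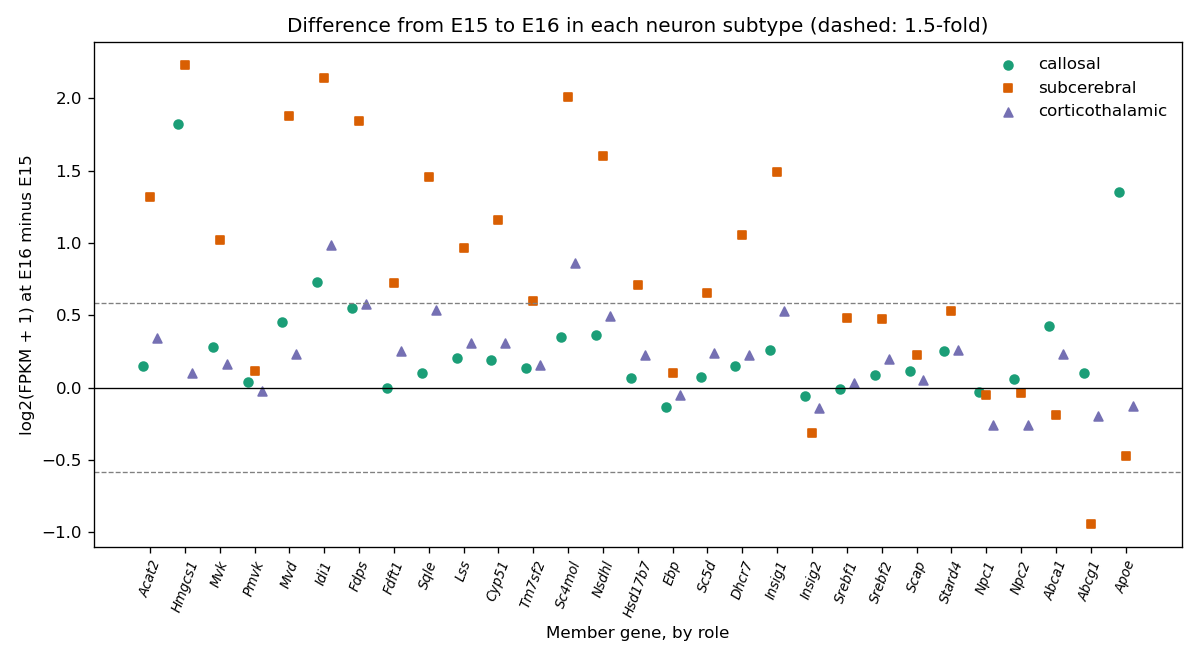
Difference in log2(FPKM + 1) between E16 and E15 (vertical axis) for each of the 29 genes, with 1 point per subtype; dashed lines mark 1.5-fold. Subcerebral points lie above the line for 16 of 18 enzymes, whereas 2 callosal and 2 corticothalamic enzyme points do.

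In corticothalamic neurons more members reached the threshold from E16 to E18, a longer interval, than from E15 to E16. The median log2 difference over the 18 enzymes was 0.25 from E15 to E16 and 0.44 from E16 to E18 there. These intervals differ in length, so the counts give no rate. Between E16 and E18, 8 members were at least 1.5-fold higher in corticothalamic neurons, beside 4.55% of all genes. They were Acat2, Hmgcs1, Mvd, Idi1, Fdps, Sc4mol, Nsdhl and Insig1, with log2 differences from 0.60 for Nsdhl to 1.03 for Hmgcs1. Neither other subtype had a higher member over that interval, beside 6.07% of all genes in callosal and 7.41% in subcerebral neurons. From E18 to P1, corticothalamic neurons had 4 higher members, Hmgcs1, Mvk, Fdps and Apoe, beside 9.18%, and 3 lower ones, Sc4mol, Insig2 and Npc1, beside 9.66%. Callosal neurons had 2 higher, Hmgcs1 and Apoe, beside 8.55%, and 3 lower, Idi1, Sc4mol and Stard4, beside 8.57%. Subcerebral neurons had 1 higher member, Apoe, beside 8.86%, and 7 lower ones beside 8.91%. The 7 were Hmgcs1, Idi1, Sc4mol, Insig2, Srebf1, Stard4 and Npc1, with Sc4mol the lowest at a log2 difference of -1.53. Apart from these 7, the counts from E18 to P1 are close to or below the background, and none of them was tested.

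Over the whole interval the upstream genes rose in the tested comparison of P1 with E15. In the limma fit across subtypes, 16 of 28 members were higher at P1 and 2 were lower, beside 33.8% of all genes tested higher and 33.6% lower. All 8 mevalonate genes were higher, led by Fdps at 1.96 ± 0.28 (adjusted p = 0.000354), Hmgcs1 at 1.56 ± 0.50 (adjusted p = 0.0229) and Mvd at 1.40 ± 0.31 (adjusted p = 0.00362). Of the 10 enzymes past squalene, 5 were higher: Nsdhl by 1.61 ± 0.26, Sqle by 0.93 ± 0.25, Dhcr7 by 0.79 ± 0.21, Tm7sf2 by 0.77 ± 0.10 and Ebp by 0.35 ± 0.13. Lss, Cyp51, Sc4mol, Hsd17b7 and Sc5d did not pass, with differences from -0.15 to 0.48. The median over the members was 0.48, against 0.00 over all genes tested. Within subtypes, the median P1 minus E15 difference over the members was 0.12 in callosal, 0.70 in subcerebral and 0.64 in corticothalamic neurons. In callosal neurons, 4 of the 10 enzymes past squalene had a positive difference, beside 6922 of all 13946 genes. Callosal Fdft1 was at 73.7 FPKM at E15 and 69.6 FPKM at P1. The count of higher members was 7 without corticothalamic and 10 without subcerebral neurons, and 11 without corticothalamic neurons at P1, when 7566, 7750 and 8681 genes of the whole table were called in either direction in place of 9400. Among the enzymes, Fdps, Mvk, Mvd, Nsdhl and Tm7sf2 passed in all 23 alternative settings, whereas Ebp and Fdft1 passed in 11 of them. A difference between stages cannot be told apart from one in collection or library preparation shared by all groups of that stage.

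Upstream sequences are shown for Sc4mol, Acat2 and Cyp51, the members with the largest called callosal excess over corticothalamic neurons among those with a motif match in their promoter window, and for Hmgcs1, whose sequence was added after its values were seen because it alone held a sterol element. They are the 180 bases before the transcription start in RefSeq's GRCm38.p6 assembly, in the direction of the gene. Capitals mark matches on either strand to the sterol element TCACNCCAC bound by SREBP, the CCAAT box bound by NF-Y, and the GC box GGGCGG bound by Sp1. In that assembly they lie at chr8:64733579-64733758, minus strand, for Sc4mol, chr17:12960726-12960905, minus strand, for Acat2, chr5:4104698-4104877, minus strand, for Cyp51, and chr13:119690171-119690350, plus strand, for Hmgcs1.
Sc4mol: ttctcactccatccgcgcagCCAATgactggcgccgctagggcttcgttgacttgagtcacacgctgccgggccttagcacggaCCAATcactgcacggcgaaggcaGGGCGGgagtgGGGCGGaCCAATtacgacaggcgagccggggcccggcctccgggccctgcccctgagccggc
Acat2: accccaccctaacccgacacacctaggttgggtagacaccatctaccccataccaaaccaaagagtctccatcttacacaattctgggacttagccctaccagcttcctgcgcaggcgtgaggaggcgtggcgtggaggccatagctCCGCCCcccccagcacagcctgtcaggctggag
Cyp51: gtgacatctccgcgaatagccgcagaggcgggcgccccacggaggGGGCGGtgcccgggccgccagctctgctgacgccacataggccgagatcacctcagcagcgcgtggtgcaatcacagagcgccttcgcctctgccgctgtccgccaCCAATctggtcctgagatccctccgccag
Hmgcs1: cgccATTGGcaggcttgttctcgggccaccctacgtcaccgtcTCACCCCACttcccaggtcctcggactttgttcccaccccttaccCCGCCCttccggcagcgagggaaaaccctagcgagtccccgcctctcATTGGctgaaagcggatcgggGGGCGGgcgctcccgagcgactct
In Hmgcs1 the sterol element ran from 137 to 129 bases upstream of the start. Sc4mol held 3 CCAAT boxes, at 160, 96 and 55 bases upstream, and 2 GC boxes, while Acat2 held a single GC box and no CCAAT box in this stretch.

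Promoter windows, 250 bases before to 50 bases after the start, were found for 23 of the 29 members. Those without one were Fdps, Fdft1, Sqle, Stard4, Npc1 and Abcg1. Of the 23, 1 held TCACNCCAC, beside 1.44% of 27025 genes with a window and 1.34% of the 8518 of them that were tested. The CCAAT box was held by 19 of the 23, and by 14 of 15 enzymes, beside 41.1% of all windows and 43.2% of those of tested genes. The GC box was held by 21 of the 23, beside 38.2% and 71.5%. No test was made of these shares, and a match is a string of letters, not a site shown to be bound. A window without a match says only that these letters are not in it.

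The sensors of the pathway were less uniform than its enzymes. Insig1, an SREBP target that retains the SCAP complex, was at 27.5, 33.1, 40.0 and 48.9 FPKM in callosal neurons from E15 to P1. It was at 13.1, 38.6, 35.1 and 26.1 FPKM in subcerebral neurons and at 12.1, 17.96, 28.1 and 37.0 FPKM in corticothalamic neurons. Callosal and corticothalamic Insig1 was thus highest at P1, while the subcerebral level was highest at E16. Insig1 was higher in callosal than corticothalamic neurons by 0.71 ± 0.23 (adjusted p = 0.0455, limma) and higher at P1 than at E15 by 1.10 ± 0.27 (adjusted p = 0.00615). Insig2, its relative, moved the other way with age. It was at 11.6, 11.1, 8.64 and 5.86 FPKM in callosal neurons, 9.73, 7.63, 8.65 and 5.01 FPKM in subcerebral neurons, and 8.69, 7.80, 7.51 and 4.30 FPKM in corticothalamic neurons. In each subtype the P1 value of Insig2 was the lowest, and its difference between P1 and E15 was -0.86 ± 0.09 (adjusted p = 6.8e-05).

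Of the regulators, Srebf2 passed comparisons between subtypes and between stages, and Scap only the one between stages. Srebf2 ran between 57.5 and 96.3 FPKM and was higher in callosal than corticothalamic neurons by 0.34 ± 0.09 (adjusted p = 0.0168, limma), and in subcerebral than corticothalamic neurons by 0.28 ± 0.09 (adjusted p = 0.0433). These 2 calls were kept in 20 and 10 of 24 alternative settings. Srebf2 was higher at P1 than at E15 by 0.29 ± 0.10 (adjusted p = 0.029, limma), a call kept in 16 of 23 settings. After quantile normalization that difference was 0.05 and did not pass (adjusted p = 0.631, limma). Srebf1, whose product acts mainly on fatty acid genes, ran from 5.75 to 10.4 FPKM and passed none of the 4 comparisons. Scap ran from 25.04 to 43.6 FPKM, did not pass any comparison between subtypes, and was higher at P1 by 0.65 ± 0.07 (adjusted p = 5.57e-05).

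The genes of transport and efflux passed few of the tests. Npc1 and Npc2 hand cholesterol out of lysosomes. Npc1 lay between 11.2 and 13.5 FPKM in every subtype from E15 to E18 and between 6.56 and 8.39 FPKM at P1, with a difference between P1 and E15 of -0.68 ± 0.09 (adjusted p = 0.000248, limma). Npc2 ran from 14.96 to 21.4 FPKM and passed no comparison. Stard4, a soluble sterol carrier, ran from 1.41 to 6.01 FPKM and also passed none. Abcg1 was at 2.19, 2.43, 1.88 and 2.84 FPKM in callosal neurons, 4.02, 1.61, 1.68 and 1.87 FPKM in subcerebral neurons, and 4.99, 4.24, 3.79 and 4.07 FPKM in corticothalamic neurons. The subcerebral value of Abcg1 at E15 lay among the corticothalamic ones, and all other callosal and subcerebral values lay below them.

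Apoe stood apart from the rest of the members in callosal neurons. It was at 7.36, 20.3, 13.7 and 21.2 FPKM there, at 7.13, 4.86, 3.73 and 6.14 FPKM in subcerebral neurons, and at 6.62, 5.99, 6.28 and 10.6 FPKM in corticothalamic neurons. At E15 the 3 subtypes lay between 6.62 and 7.36 FPKM, and from E16 on the callosal values exceeded all others. Apoe was higher in callosal than corticothalamic neurons by 0.92 ± 0.27 (adjusted p = 0.0329, limma), a call kept in 13 of 24 alternative settings and lost when any stage after E15, or any corticothalamic group, was left out. Microglial genes were high in the same groups. The summed level of 13 microglial markers was 17.1, 65.6, 41.4 and 42.0 FPKM in callosal neurons at E15, E16, E18 and P1. It ran from 17.4 to 36.1 FPKM in subcerebral and from 19.6 to 26.6 FPKM in corticothalamic neurons. Of the 11 markers tested, 8 exceeded their subcerebral level in callosal neurons, beside 14.1% of all genes, and 8 their corticothalamic level, beside 15.3%. The marker Aif1 was lower in callosal than corticothalamic neurons, at -0.57 ± 0.14 (adjusted p = 0.0136, limma). Csf1r, a defining receptor of microglia, was at 0.44, 5.33, 2.78 and 2.86 FPKM in callosal neurons and at or below 0.14 FPKM in the other 8 groups. Of the 10 astrocyte and radial glia genes tested, 4 were higher and 1 lower in callosal than subcerebral neurons, beside 14.1% and 15.2% of all genes. Against corticothalamic neurons, 1 was higher and 1 lower, beside 15.3% and 16%. The part of microglial RNA, or of astrocyte and radial glia RNA, in the level of Apoe was not tested.

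**Figure D5:**
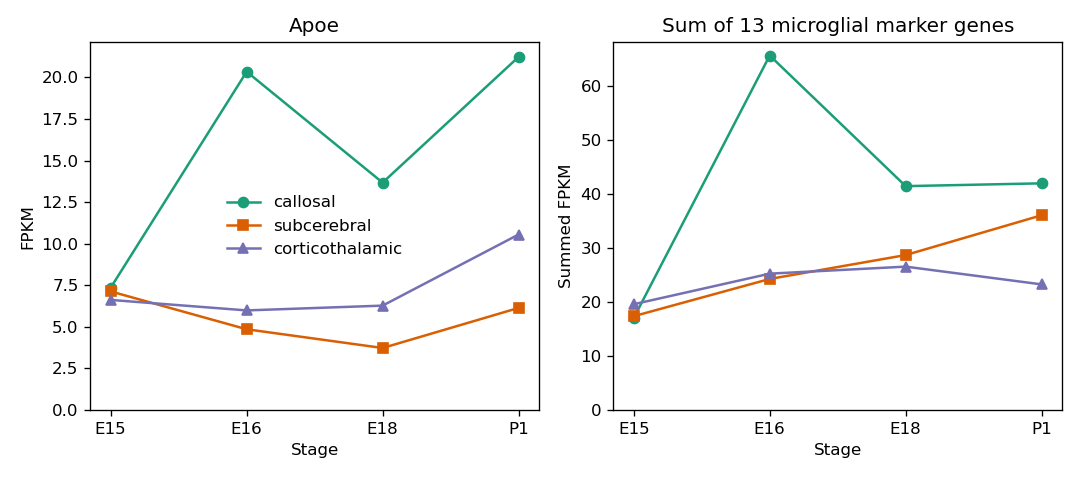
FPKM of Apoe (left) and summed FPKM of 13 microglial markers (right) by stage, with 1 point per group and a line per subtype. Callosal neurons are level with the other subtypes at E15 and above them in both panels from E16 on.

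Other genes of cholesterol handling that are not among the 29 did not share a direction. Of 31 tested from a list of 33, 7 were higher and 9 lower in callosal than corticothalamic neurons, 6 higher and 7 lower in subcerebral than corticothalamic neurons, and 8 higher and 5 lower in callosal than subcerebral neurons. The shares of all genes were 15.3% and 16%, 14.7% and 12.8%, and 14.1% and 15.2%. At P1, 15 were higher and 9 lower than at E15, beside 33.8% and 33.6%. Stard5, a sterol carrier, was lower in callosal than corticothalamic neurons by a log2 difference of -0.92 ± 0.13 (adjusted p = 0.00147, limma). Cyp46a1, the neuronal enzyme that hydroxylates cholesterol for its removal from the brain, was lower in subcerebral than corticothalamic neurons at -1.11 ± 0.10 (adjusted p = 0.000786) and higher at P1 than at E15 by 2.25 ± 0.11 (adjusted p = 4.08e-06). Gramd1b, which moves cholesterol from the plasma membrane to the endoplasmic reticulum, was higher in callosal than subcerebral neurons by 0.79 ± 0.08 (adjusted p = 0.000629).

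Of 11 fatty acid genes linked to SREBP, 6 were higher and 1 lower in callosal than corticothalamic neurons, beside 15.3% and 16% of all genes. Against the same neurons, 6 were higher and 0 lower in subcerebral neurons, beside 14.7% and 12.8%. Fasn, the fatty acid synthase, was at 77.9, 105, 127 and 154 FPKM in callosal neurons, 53.8, 123, 139.7 and 154 FPKM in subcerebral neurons, and 45.8, 57.3, 71.6 and 110.2 FPKM in corticothalamic neurons. It was higher in callosal than corticothalamic neurons by 0.73 ± 0.14 (adjusted p = 0.00536, limma), and Scd2, a desaturase, was higher by 0.56 ± 0.10 (adjusted p = 0.00427). Me1, the cytosolic malic enzyme that supplies NADPH, was lower in callosal neurons, at -1.10 ± 0.16 (adjusted p = 0.00135). Between callosal and subcerebral neurons 1 was higher and 3 were lower, beside 14.1% and 15.2%, and at P1 against E15, 5 were higher and 1 lower, beside 33.8% and 33.6%.

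Some levels may carry reads of a second gene. In the GENCODE M21 annotation, Mvd, Fdft1, Cyp51, Srebf1 and Npc1 overlap a protein-coding gene on the opposite strand, and Fdps and Tm7sf2 overlap one on the same strand. Whether the authors' quantification used strand is not given in the sources used here. For these 7 members the level is therefore uncertain, while no overlapping protein-coding gene was found for the other 22. Acat2 has a close copy in the mouse genome, Acat3, with which reads could also be shared.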

How the data were processed

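The 29 members, the gene lists and the tests were chosen with earlier results of these data known. RNA was sequenced after poly(A) selection, per the labels' protocols. TopHat2, Cufflinks and the mouse build mm9 were used, per the submitters' processing notes. The deposited values were read as FPKM from the use of Cufflinks and from the values; the header names no unit, and how the authors pooled 2 libraries per group is not given in the sources used here. Column sums ran from 355965 to 473871. No library value, and so no counting interval, could be derived.

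Values were tested with limma 3.58.1 (R 4.3.3, statmod 1.5.0) as log2(FPKM + 1): additive stage and subtype terms over 12 values, 6 residual degrees of freedom, trended and robust moderation, genes at 1 FPKM or more in 2 columns, Benjamini-Hochberg adjustment over 13946 genes, threshold 0.05. The log scale understates changes of low genes. The script was tested on simulated data. Alternatives varied pseudocount, filter, scaling, moderation, and the stages, subtypes or columns included.

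All members were named, and of the other lists at most 5 genes with the largest called differences per comparison; those lists were counted in full and named in part, and some of their genes are not reported here. Sequences came from the RefSeq promoter table for GRCm38.p6; coordinates of mm9 were not used.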

Additional observations from a re-analysis of the deposited data

Results flagged for a closer look

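For 3 enzymes callosal neurons were at least 1.5-fold above subcerebral neurons at E15, below them at every later stage, and at least 1.5-fold below them at 1 or more of those stages. As callosal minus subcerebral values on the log2(FPKM + 1) scale, Mvd was 0.67 at E15 and -0.75, -0.72 and -0.67 at E16, E18 and P1. Fdps was 0.71 at E15 and -0.58, -0.59 and -0.37 later. Nsdhl was 0.85 at E15 and -0.39, -0.42 and -0.66 later. How many of all genes met this rule was not counted. Without a threshold on size, the difference was positive for 17 of the 18 enzymes at E15 and for 1, 3 and 4 of them at E16, E18 and P1. Among all 13946 genes tested it was positive for 6858, 6751, 7014 and 6897 at the same 4 stages. Each is a difference between 2 single values, and the change of sign was not tested.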

How the results depend on the processing

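No paired analysis was possible because the table holds 1 value per group, with no column per library. The counts of members called in the 4 limma comparisons stayed within 1.5 times under pseudocounts of 0.1 and 5, median-ratio scaling, quantile normalization, moderation without trend, and fits restricted to the groups compared. No named member that passed reversed its direction under any alternative run. Without a filter, 2 members were higher in callosal than subcerebral neurons and 2 lower in subcerebral than corticothalamic neurons. With a filter of 5 FPKM, Abcg1 was not tested, and 0 members were lower in either comparison with corticothalamic neurons. Leaving out a stage, subtype or group moved the counts more. In callosal against subcerebral neurons, 0 to 2 members were higher and 0 to 8 lower. In callosal against corticothalamic neurons, 4 to 18 were higher and 0 to 1 lower. In subcerebral against corticothalamic neurons, 0 to 18 were higher and 0 to 2 lower. At P1 against E15, 7 to 17 were higher. Removing groups also leaves fewer residual degrees of freedom. The limits are the absence of values per library, an unknown depth, and stage differences that cannot be told apart from collection.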
